A study of Mus musculus with 6 samples.

Results

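The 10 genes described here encode ligands and receptors of the BMP and TGF-beta pathways, of 32285 genes measured, in single nuclei from degenerating mouse retinas that received IL-27 or saline. The genes were taken by symbol. They are the ligands Bmp2 (ENSMUSG00000027358), Bmp4 (ENSMUSG00000021835), Bmp6 (ENSMUSG00000039004), Bmp7 (ENSMUSG00000008999) and Tgfb2 (ENSMUSG00000039239) and the receptors Bmpr1a (ENSMUSG00000021796), Bmpr1b (ENSMUSG00000052430), Bmpr2 (ENSMUSG00000067336), Tgfbr1 (ENSMUSG00000007613) and Tgfbr2 (ENSMUSG00000032440). Levels rest on UMIs (unique molecular identifiers, each standing for 1 captured RNA molecule), added up within a library for all nuclei of a type and given as CPM, the UMIs of a gene per 1000000 UMIs of that sum. Because the 3′ libraries were not scaled by gene length, a level is compared between cell types and libraries but not between genes.

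All mice were of the strain B6.CXB1-Pde6b-rd10/J, which carries a mutation of the rod phosphodiesterase gene Pde6b and loses rods and then cones after birth. Mice were injected into the vitreous at postnatal day 18 with 20 ng recombinant IL-27, an immune cytokine that signals through Stat proteins, or with saline, and the retinas were taken at postnatal day 20. Retinas given saline made up 3 libraries (labelled replicates 1, 2 and 6), and retinas given IL-27 the other 3 (labelled replicates 4, 5 and 10). No group of uninjected retinas or of retinas without degeneration entered the comparison. The sources used here do not say whether a library holds 1 retina or several, so the p-values measure the spread between libraries.

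The libraries held 8968 to 9965 barcodes and 36678332 to 48260748 UMIs each, and any 2 of them shared at most 30 barcodes. After filtering, nuclei were named from marker lists as rods, cones, bipolar cells (BC), amacrine cells (AC), horizontal cells (HC), retinal ganglion cells (RGC), Muller glia, astrocytes, microglia, endothelial cells and pericytes, while 3226 nuclei stayed unnamed. Of the unnamed nuclei, 1069 formed a cluster led by Grik1, a bipolar marker on the list. Another 672 formed a cluster led by Hs3st2 and Fat4 that shared Nxph1, Tacr3 and Pde1a with a bipolar cluster. Neither is counted among bipolar cells or in shares over named types. A further cluster, of 659 nuclei, was named ciliary epithelium (6 of 8 markers), with Muller glia as the next class (6 markers). Its nuclei were counted with Muller glia, where the authors placed their saline-enriched population. Clustered again, the Muller nuclei so defined held a cluster of 657 nuclei led by Frmpd4, Mecom, Fbln1 and Reln. It is called ciliary-like here and is described separately throughout.

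BMPs and TGF-betas are secreted dimers of a single protein superfamily. A ligand brings together type I receptors (here Bmpr1a, Bmpr1b and Tgfbr1) and type II receptors (here Bmpr2 and Tgfbr2), the type II receptor phosphorylates the type I receptor, and Smad proteins carry the signal to the nucleus. In the eye, BMP4 and BMP7 are known for their roles in forming the lens, the dorsal retina and the ciliary body, and TGF-beta2 is the main TGF-beta isoform of the retina and vitreous.

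The promoter windows of 3 of the genes are shown because the levels described below are distributed in 3 different ways. Bmp4 was found mainly in ciliary-like and horizontal cell nuclei, Tgfb2 in glia and bipolar cells, and Bmpr1a in every cell type. The sequences are from RefSeq (GRCm38.p6), and each covers 300 bases, from 250 bases before to 50 bases after the start of the gene, on the strand of the gene, 5′ to 3′. They lie on the minus strand at chr14:46390620-46390919 for Bmp4, chr1:186705940-186706239 for Tgfb2 and chr14:34502497-34502796 for Bmpr1a. Capitals mark TATAAA in Tgfb2 and GGCGCC in Bmpr1a.
Bmp4: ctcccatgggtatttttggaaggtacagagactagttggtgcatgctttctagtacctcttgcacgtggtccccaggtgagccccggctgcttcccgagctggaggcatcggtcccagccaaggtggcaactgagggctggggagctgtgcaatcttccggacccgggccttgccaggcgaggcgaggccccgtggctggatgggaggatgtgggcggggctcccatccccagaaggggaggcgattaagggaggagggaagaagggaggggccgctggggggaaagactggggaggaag
Tgfb2: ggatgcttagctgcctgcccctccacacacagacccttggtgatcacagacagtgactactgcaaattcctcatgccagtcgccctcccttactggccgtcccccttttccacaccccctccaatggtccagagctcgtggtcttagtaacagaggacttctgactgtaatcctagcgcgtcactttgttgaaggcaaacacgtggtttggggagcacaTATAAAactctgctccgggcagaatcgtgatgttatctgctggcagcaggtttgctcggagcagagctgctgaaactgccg
Bmpr1a: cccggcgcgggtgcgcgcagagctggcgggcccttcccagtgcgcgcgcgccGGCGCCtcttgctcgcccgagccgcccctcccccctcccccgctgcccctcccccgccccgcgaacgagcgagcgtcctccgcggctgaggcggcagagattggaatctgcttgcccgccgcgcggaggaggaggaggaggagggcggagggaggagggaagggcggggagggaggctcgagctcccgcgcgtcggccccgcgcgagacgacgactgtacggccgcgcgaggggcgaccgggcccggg

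The 3 windows differed in base composition. GC content was 64.0% for Bmp4, 54.3% for Tgfb2 and 79.3% for Bmpr1a, against a median of 53.0% over 32544 promoter windows. The Bmpr1a window held 48 CpG dinucleotides, the Bmp4 window 12 and the Tgfb2 window 10. RefSeq windows were matched for 8 of the 10 genes (all but Bmp2 and Bmp7), with 11 windows in all. Of 4 motifs searched on both strands, GGCGCC, a GC-rich element that BMP Smads bind, was in windows of Bmpr1a, Bmpr2 and Tgfbr1 and in 11.9% of all windows. TATAAA, the letters of the TATA box, was in windows of Tgfb2 and Bmpr1b and in 13.6% of all windows. In Bmpr1b the match lay at the upstream end of a window, far from the start of the gene. Neither TTCNNNGAA, the Stat element (8.33% of all windows), nor TGACGTCA, the cAMP response element (1.80%), was in a window of the matched genes. These are matches of letters only.

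As shown in the plot of levels by cell type, the 10 genes fell into groups by the cells that held them. Member genes and related pathway genes were left out of the genes used for clustering, and since the types are clusters of these same nuclei, the levels are a description without a test. Bmp2, Bmp4 and Bmp7 were highest in ciliary-like nuclei, Bmp6 in endothelial cells and, with more UMIs behind it, in amacrine cells, Tgfb2 in Muller glia and astrocytes, Bmpr1a in rods, Bmpr1b in astrocytes and Muller glia, Bmpr2 in endothelial cells, and Tgfbr1 and Tgfbr2 in microglia. The highest type was the same for each of the 10 genes when all nuclei were summed, when the mitochondrial limit was 1% and when doublets were kept.

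**Figure D1:**
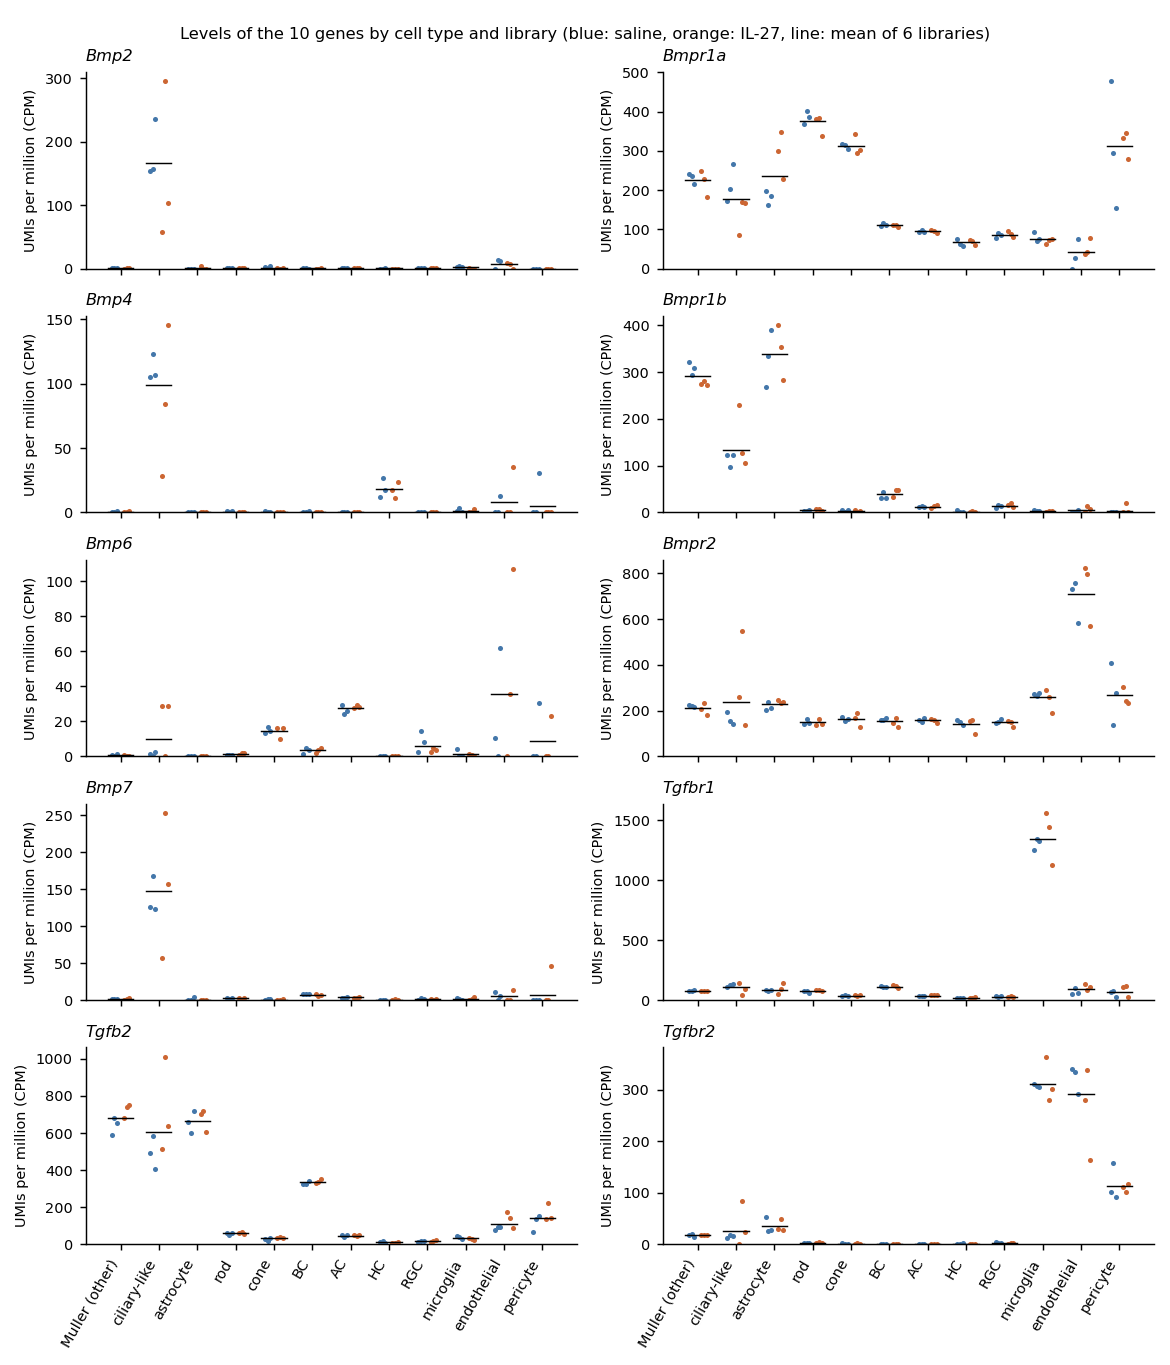
Level of each of the 10 genes in 12 nuclear populations (x axis) in CPM (y axis, linear, a different scale for each gene). Each point is a library (blue saline, orange IL-27), each line is the mean of the 6 libraries, and Muller (other) stands for Muller glia without ciliary-like nuclei. Bmp2, Bmp4 and Bmp7 stand out in ciliary-like nuclei, at means of 167, 98.8 and 147 CPM.

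The ciliary-like nuclei were checked against their label first, because 3 of the ligands depend on them. They had 6 of 8 ciliary epithelium markers and 6 of 8 Muller markers in at least 10% of nuclei, while the other Muller nuclei had 2 and 8. Otx1, a transcription factor of the anterior optic cup, was at 52.5 CPM in ciliary-like nuclei and 0.0355 CPM in the other Muller nuclei, and Zic1 was at 361 and 12.1 CPM. Rlbp1, which encodes a retinoid-binding protein of Muller glia, was at 44.7 and 335 CPM, whereas the Muller marker Vim, which encodes vimentin, was at 94.8 and 59.96 CPM. Summed stromal fibroblast markers were at 42.2 to 99.7 CPM in ciliary-like and 5.32 to 9.24 CPM in the other Muller nuclei, with 1 and 0 of 5 markers in at least 10% of nuclei and Lum at 0 in both, and their part in the results was not tested. The ciliary marker list was not high as a whole. Its summed level was 1777 to 3061 CPM in ciliary-like nuclei and 1653 to 2100 CPM in the others, since Col9a1 was abundant in both (1519 and 1720 CPM), and Ecel1 was at 0 in ciliary-like nuclei. Summed rod markers were at 379 to 1134 CPM in ciliary-like and 237 to 564 CPM in the other Muller nuclei. The part of rod RNA in the results below was not tested.

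The number of ciliary-like nuclei differed widely between libraries. They made up 19.9%, 21.6% and 11.1% of the Muller nuclei in saline replicates 1, 2 and 6 (227, 219 and 98 nuclei). In IL-27 replicates 4, 5 and 10 they made up 1.49%, 0.719% and 12.9% (12, 6 and 95 nuclei). IL-27 replicate 10 thus lay inside the saline range, and the other IL-27 libraries lay far below it. The means were 17.5 ± 5.64% in saline and 5.02 ± 6.79% in IL-27 (SD, n = 3 each). A two-sided exact permutation test gave p = 0.2, and 0.1 is the smallest p that 3 against 3 libraries allow. The cluster was identified by genes that the authors reported for a Muller population enriched in saline in these same libraries. The test is therefore not independent of that choice, and the shares are given as a description.

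Bmp2, a ligand known for bone and heart development, was held within Muller glia almost entirely by the ciliary-like nuclei. Its level there was 154, 157 and 235 CPM in saline replicates 1, 2 and 6. In IL-27 replicates 4, 5 and 10 it was 57.2, 295 and 103 CPM, from 2, 7 and 36 UMIs. The small counts of IL-27 replicates 4 and 5 place them on both sides of the saline libraries. In the other Muller nuclei, Bmp2 was at 0 to 0.523 CPM in the 6 libraries, with 7 UMIs in 4764 nuclei. Ciliary-like nuclei gave 410 of the 417 Bmp2 UMIs in Muller glia, or 98.3% (95% exact binomial interval 96.6 to 99.3%; such intervals cover counting error only). They also gave 77.5% of the Bmp2 UMIs in all named types, although they held 1.27% of the UMIs of all genes in those types.

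Bmp4, a ligand that patterns the dorsal retina, followed the same distribution with a second source. In ciliary-like nuclei it was at 105, 123 and 107 CPM in saline replicates 1, 2 and 6. It was at 28.6, 84.3 and 145 CPM in IL-27 replicates 4, 5 and 10, from 1, 2 and 51 UMIs. The groups overlapped, and the highest value belonged to IL-27 replicate 10. Ciliary-like nuclei gave 297 of 309 Bmp4 UMIs in Muller glia (96.1%, interval 93.3 to 98.0%) and 65.4% of those in all named types. Horizontal cells were the next highest type, with 18.0 ± 6.36 CPM (SD, n = 6), and gave 18.3% of the Bmp4 UMIs in named types. In horizontal cells Bmp4 was at 11.7, 27.1 and 17.8 CPM in saline and 17.2, 11 and 23.4 CPM in IL-27. All 6 ciliary-like values lay above all 6 horizontal cell values. Bmp4 was near 0 in the other neurons, with 0.0952 ± 0.106 CPM in amacrine cells.

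Bmp7, a ligand needed for lens and kidney formation, had more of its UMIs outside ciliary-like nuclei. In ciliary-like nuclei it was at 126, 168 and 123 CPM in saline replicates 1, 2 and 6. It was at 57.2, 253 and 157 CPM in IL-27 replicates 4, 5 and 10, from 2, 6 and 55 UMIs. The groups again overlapped. Ciliary-like nuclei gave 372 of 410 Bmp7 UMIs in Muller glia (90.7%, interval 87.5 to 93.4%) but 32.9% of those in all named types. Bipolar cells gave 29.6% and amacrine cells 24.5%, while they held 21.5% and 35.8% of the UMIs of all genes in those types. By level, ciliary-like nuclei were 19.0-fold the next type, pericytes, whose level rested on 2 UMIs. Bipolar cells had 7.69 ± 0.837 CPM (SD, n = 6). Of their 8 clusters, those led by Igfn1 and by Car8 and Prkca were highest, at 17.3 ± 5.06 and 16.2 ± 1.18 CPM, and Prkca marks rod bipolar cells. The cluster led by Gabrr3 was lowest, at 0.23 CPM.

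The share of nuclei with a UMI gave the same order at equal depth. With each nucleus thinned to 1000 UMIs, 12.7% of 656 ciliary-like nuclei had a Bmp2 UMI, 11.6% a Bmp4 UMI and 13.1% a Bmp7 UMI. Of 4730 other Muller nuclei, 0.0423%, 0.0634% and 0.254% did, and of 11128 rod nuclei, 0.0719%, 0.0449% and 0.261% did. The share in the other Muller nuclei was thus near that in rods. Thinning left out 1 ciliary-like nucleus, 34 other Muller nuclei and 3365 rod nuclei that had fewer UMIs. Before thinning, 33.9%, 31.1% and 37.0% of ciliary-like nuclei had a UMI of Bmp2, Bmp4 and Bmp7 at a median of 3671 UMIs per nucleus, against 0.147%, 0.210% and 0.756% of the other Muller nuclei at 4431 and 0.117%, 0.0828% and 0.386% of rods at 1296. In all, 442 of 657 ciliary-like nuclei (67.3%) had a UMI of at least 1 of the 3 ligands. In 247 of these nuclei a single ligand was seen, in 162 a pair, and in 33 all 3.

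Over all Muller glia, ciliary-like nuclei included, the 3 BMP ligands were highest in the libraries with many ciliary-like nuclei. Bmp2 was at 24.1, 29.8 and 23.5 CPM in saline replicates 1, 2 and 6. It was at 0.572, 2.34 and 11 CPM in IL-27 replicates 4, 5 and 10. The groups did not overlap, and IL-27 replicate 10, with 95 ciliary-like nuclei, was nearest to saline. Bmp4 was at 16.6, 23.5 and 11.6 CPM in saline and at 0.286, 0.520 and 16.3 CPM in IL-27. Bmp7 was at 21.1, 33.1 and 14.0 CPM in saline and at 1.43, 2.60 and 18.7 CPM in IL-27. For Bmp4 and Bmp7, IL-27 replicate 10 lay within the saline range. In such sums, fewer nuclei of a kind and less RNA per nucleus cannot be told apart.

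**Figure D2:**
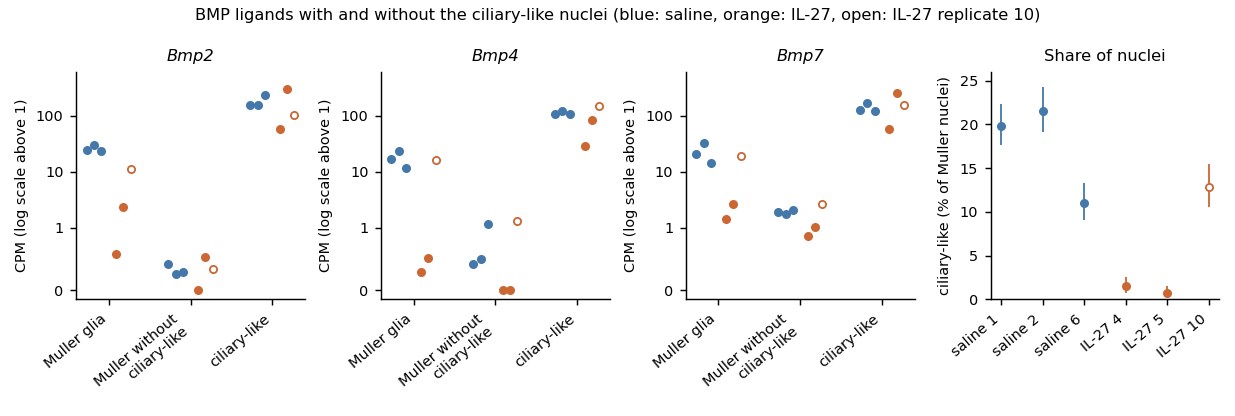
Bmp2, Bmp4 and Bmp7 in all Muller glia, in Muller glia without ciliary-like nuclei and in ciliary-like nuclei (first 3 panels, y axis in CPM, linear to 1 and log above), and the percent of Muller nuclei that were ciliary-like with 95% exact binomial intervals (last panel). Each point is a library (blue saline, orange IL-27, open circle IL-27 replicate 10). All 3 ligands are near 0 to 3 CPM once ciliary-like nuclei are left out, and IL-27 replicate 10 is nearest to or within saline in the first group of each panel.

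The treatment comparison asked whether IL-27 altered these genes in Muller glia, using the quasi-likelihood test of edgeR, with p-values adjusted by Benjamini-Hochberg over all genes of a population. In all Muller glia, 9 of the 10 genes passed the filter on low counts and 0 of 9 passed an adjusted p of 0.05, against 0.0285% of all 14055 genes tested (4 genes). The log2 fold change (log2FC, IL-27 over saline) of Bmp2 was −2.50 ± 0.52 (SE), with an adjusted p of 0.169. Bmp7 had −1.62 ± 0.64 (adjusted p = 0.488) and Bmp4 −1.64 ± 0.79 (adjusted p = 0.601). Tgfb2 had +0.23 ± 0.10 (adjusted p = 0.538). At an unadjusted p under 0.05 there were 3 of the 9 genes (Bmp2, Bmp7 and Tgfb2), against 9.08% of all genes tested, and DESeq2 with all libraries also called 0. The receptors lay between −0.15 and 0.09, near the median of all genes (0.0055).

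The groups did not overlap for 3 of the 9 genes tested in all Muller glia, with Bmp2 and Tgfbr1 lower and Tgfb2 higher in every IL-27 library, against 13.8% of all genes tested. The calls for the BMP ligands depended on the libraries and on the filter. Without IL-27 replicate 10, Bmp2 had a log2FC of −4.05 ± 0.35 (adjusted p = 0.00019), Bmp4 −5.28 ± 0.56 (adjusted p = 0.00069) and Bmp7 −3.43 ± 0.47 (adjusted p = 0.0033), and DESeq2 without it called the same 3 genes. Of all genes, 2.22% were then called lower in IL-27. With all 6 libraries but no filter on low counts, edgeR called Bmp2 (adjusted p = 5.3e-05) and Bmp7 (adjusted p = 0.026), and DESeq2 without IL-27 replicate 4 called Bmp2. In the fit without IL-27 replicate 10, the ciliary-like share of Muller nuclei was 11.1 to 21.6% in saline and 0.719 to 1.49% in IL-27. With that share as a covariate in the fit of all 6 libraries, the log2FC was −1.5 for Bmp2, 0.39 for Bmp4 and 0.26 for Bmp7, none of them called. Ciliary-like nuclei gave 98.3%, 96.1% and 90.7% of the Muller UMIs of these ligands, and their share went with treatment in most libraries. The covariate fit therefore cannot separate treatment from that share.

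Once ciliary-like nuclei were left out, 6 of the 10 genes passed the filter in Muller glia, Bmp2, Bmp4, Bmp6 and Bmp7 being too low, and 0 of 6 were called, against 0.0366% of 13671 genes (5 genes). At an unadjusted p under 0.05 there were also 0, against 4.84% of all genes. The log2FC ranged from −0.16 ± 0.09 for Bmpr1b to 0.18 ± 0.10 for Tgfb2. Bmpr1b was at 323, 294 and 309 CPM in saline and 275, 281 and 273 CPM in IL-27. It was the only 1 of the 6 whose groups did not overlap, against 10.2% of all genes tested.

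Within ciliary-like nuclei the number per library limited the comparison. IL-27 replicate 5 had 6 such nuclei and was left out, and IL-27 replicate 4 had 12. Of the 10 genes, 8 were tested and 0 were called, and the share called over all 7253 genes was 0%. In the libraries tested, the groups did not overlap for 2 of the 8, Bmp2 and Bmpr1a, both lower in IL-27. Of all 7253 genes, 1003 were higher and 1128 lower in every IL-27 library tested. Bmp2 had −0.93 ± 0.34 (adjusted p = 0.622), Bmp4 0.15 ± 0.33 (adjusted p = 0.953) and Bmp7 −0.04 ± 0.32 (adjusted p = 1). Bmp2 was the only 1 of the 8 with an unadjusted p under 0.05, against 7.25% of all genes, and DESeq2 called 0 of them. The difference between this effect and that in the other Muller nuclei, also without IL-27 replicate 5, was called for 0 of the members, against 0.526% of all genes.

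Tgfb2, whose product is stored in the matrix as a latent complex, was the ligand with the widest distribution. In the other Muller nuclei it was at 588, 682 and 656 CPM in saline replicates 1, 2 and 6. It was at 681, 742 and 754 CPM in IL-27 replicates 4, 5 and 10. The lowest IL-27 value lay just under the highest saline value, so the groups overlapped once ciliary-like nuclei were left out. Astrocytes had 668 ± 55.1 CPM, and ciliary-like nuclei 608 ± 214 CPM (SD, n = 6). These 3 populations overlapped between libraries, and all of them lay above bipolar cells at 335 ± 11 CPM. Muller glia without ciliary-like nuclei gave 40.7% of the Tgfb2 UMIs in named types and bipolar cells 39.0%. Unnamed nuclei, among them the cluster led by the bipolar marker Grik1, are not counted in these shares.

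Among bipolar cells, Tgfb2 differed by cluster. The cluster led by Car8, Prkca and Trpm1, which are rod or ON bipolar genes, had 587 ± 34.0 CPM, and the cluster led by Neto1 had 19.8 ± 4.30 CPM (SD, n = 6). The other 6 clusters lay between 155 and 396 CPM. Retinal ganglion cells (16.2 ± 3.17 CPM) and horizontal cells (9.90 ± 4.62 CPM) were lowest of all types.

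Bmp6, a ligand known for iron regulation in liver, was mainly a gene of amacrine cells here. Amacrine cells had 29.5, 24.0 and 25.9 CPM in saline and 27.4, 29.2 and 28.3 CPM in IL-27, and gave 80.6% of its UMIs in named types. The groups overlapped (log2FC 0.11 ± 0.10, adjusted p = 1). Of 17 amacrine clusters, the one led by Spink13, Esr1 and Angpt1 had 231 ± 24.9 CPM and the one led by Dnah11 and Ppp1r17 had 84.2 ± 12.3 CPM (SD, n = 6), and the next had 20.7 ± 11.4 CPM. An unnamed cluster led by Gm12128 and Cntn6, not counted in that share, had 89.1 ± 10.0 CPM. Cones had 14.5 ± 2.64 CPM. Endothelial cells had the highest mean, 35.8 ± 42.3 CPM, but from 31 UMIs spread between 0 and 107 CPM, so their place above amacrine cells lies within the spread. Horizontal cells and astrocytes had no Bmp6 UMI in 486 and 291 nuclei, for which the exact binomial upper bounds of the share with a UMI were 0.756% and 1.26%.

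**Figure D3:**
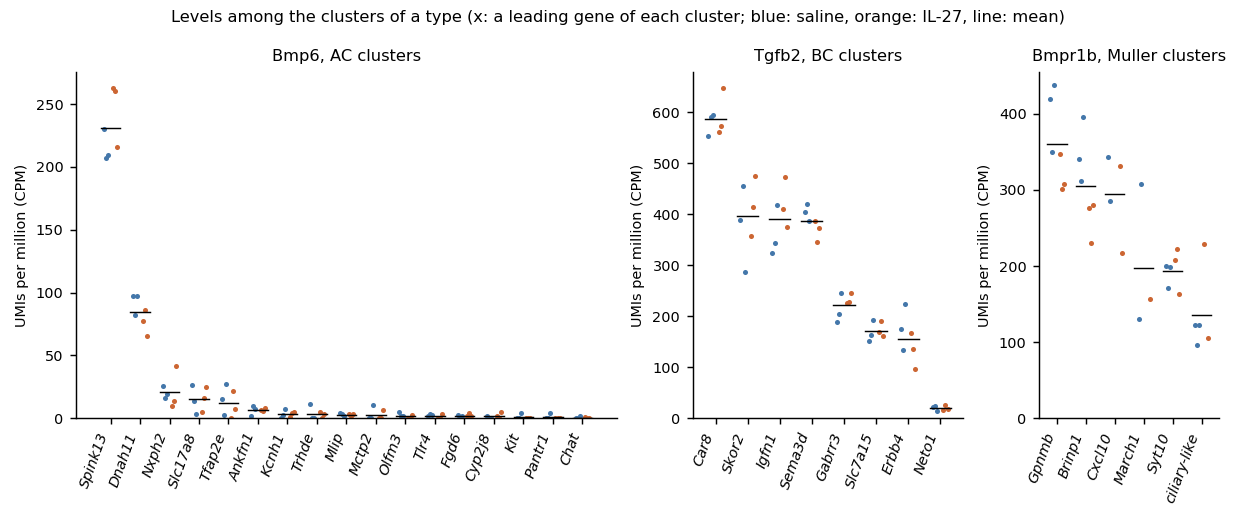
Level (y axis, CPM, linear) of Bmp6 in 17 amacrine clusters, Tgfb2 in 8 bipolar clusters and Bmpr1b in 6 Muller clusters, each cluster named on the x axis by a leading gene. Each point is a library with at least 10 nuclei of the cluster (blue saline, orange IL-27), and lines are means. Bmp6 stands at 231 CPM in the Spink13 cluster, Tgfb2 spans 19.8 to 587 CPM, and Bmpr1b spans 135 to 361 CPM.

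Bmpr1a, the widely used type I receptor for BMPs, was highest in rods. Rods had 369, 400 and 386 CPM in saline and 381, 384 and 337 CPM in IL-27. Cones had 318, 316 and 304 CPM in saline and 343, 294 and 302 CPM in IL-27. Neither type separated the groups. Rods had 376 ± 21.8 CPM and cones 313 ± 17.1 CPM (SD, n = 6), with overlapping libraries. Pericytes, with 313 ± 105 CPM from 75 UMIs, and astrocytes, with 237 ± 72.3 CPM, also overlapped rods or cones. Muller glia without ciliary-like nuclei had 225 ± 24.1 CPM, while bipolar cells had 110 ± 3.25, amacrine cells 94.8 ± 3.25 and horizontal cells 66.7 ± 7.10 CPM. Endothelial cells were lowest, at 42.9 ± 29.8 CPM from 35 UMIs.

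Bmpr1b, the second type I receptor for BMPs, was by contrast a glial gene. Astrocytes had 269, 335 and 390 CPM in saline and 401, 355 and 282 CPM in IL-27. Astrocytes (339 ± 54.5 CPM) and Muller glia without ciliary-like nuclei (293 ± 20.1 CPM) overlapped, and ciliary-like nuclei had 134 ± 48.0 CPM, below both in every library (SD, n = 6). Muller glia without ciliary-like nuclei gave 63.9% of its UMIs in named types. Rods had 4.72 ± 1.78 CPM. Among Muller clusters, the one led by Gpnmb and Gfap, genes seen in reactive glia, had 361 ± 56.9 CPM, the one led by Brinp1 and Tbx5 had 306 ± 57.8 CPM, and the one led by Syt10 and Adamts17 had 194 ± 22.4 CPM. Bipolar cells had 38.9 ± 8.89 CPM, most of it in the cluster led by Gabrr3 and Cntn5, which had 254 ± 62.7 CPM.

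Bmpr2, the type II receptor for BMPs whose loss is known in pulmonary hypertension, was highest in endothelial cells. They had 733, 759 and 584 CPM in saline and 823, 798 and 570 CPM in IL-27. Each group held 1 library well below its other two, so the groups overlapped. The mean, 711 ± 109 CPM (SD, n = 6), was 2.66-fold that of pericytes, the next type (267 ± 89.6 CPM), and the libraries of the 2 types did not overlap. The other populations had means of 142 to 257 CPM.

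Tgfbr1 and Tgfbr2, the type I and type II receptors for TGF-beta, were both highest in microglia. Tgfbr1 was at 1252, 1346 and 1327 CPM in saline replicates 1, 2 and 6. It was at 1562, 1441 and 1125 CPM in IL-27 replicates 4, 5 and 10. The IL-27 libraries fell on both sides of saline. The microglial mean, 1342 ± 151 CPM (SD, n = 6), was 11.8-fold that of bipolar cells, the next type (114 ± 5.89 CPM). With nuclei thinned to 1000 UMIs, 63.6% of 1449 microglia and 6.91% of rods had a Tgfbr1 UMI. The unthinned shares were 77.7% and 9.38%, at medians of 2097 and 1296 UMIs per nucleus.

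Tgfbr2 was at 311, 308 and 306 CPM in microglia of saline replicates 1, 2 and 6. It was at 364, 281 and 302 CPM in IL-27 replicates 4, 5 and 10. The saline libraries lay close together and inside the IL-27 range. Endothelial cells had 291 ± 67.6 CPM, overlapping microglia, and pericytes had 113 ± 23.0 CPM (SD, n = 6). Astrocytes (35.2 ± 12.2 CPM), ciliary-like nuclei (25.4 ± 29.9 CPM, from 42 UMIs) and Muller glia without them (17.7 ± 1.90 CPM) followed, the ciliary-like libraries overlapping both of the others. No neuronal type was above 2.39 CPM, and bipolar cells, next to microglia for Tgfbr1, had 0.637 ± 0.358 CPM of Tgfbr2.

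Outside Muller glia, no member passed the test between IL-27 and saline. Over 10 other types, 51 tests of a member were made and 0 were called by edgeR, with a smallest adjusted p of 0.983, and 2 had an unadjusted p under 0.05, against 3.33% of all tests in these types. The share called over all genes was 0.00747% in rods, 0.00591% in amacrine cells, 0.292% in pericytes and 0% in cones, bipolar cells, horizontal cells, ganglion cells, microglia, astrocytes and endothelial cells. Of the 51 log2FC, 41 lay within 0.25 of 0. The 2 tests with an unadjusted p under 0.05 were Bmpr1a in astrocytes and Bmp6 in ganglion cells. Bmpr1a in astrocytes was at 198, 161 and 186 CPM in saline and 299, 348 and 227 CPM in IL-27, from 26 to 79 UMIs per library. The groups did not overlap, and the log2FC was 0.64 ± 0.22 (adjusted p = 0.985). Tgfbr1 did not overlap either in rods (57.0 to 76.9 CPM in saline, 78.1 to 86.3 CPM in IL-27). In amacrine cells it was at 36.6 to 38.4 and 39.8 to 40.5 CPM. Bmp2 in microglia, too low to test, was lower in every IL-27 library, from 6 UMIs in all. The share of all genes without overlap was not computed for these types. It was 13.8% in all Muller glia and 10.2% in Muller glia without ciliary-like nuclei. The cases without overlap are therefore a description and cannot be read as effects on these genes. Bmp6 in ganglion cells was at 2.60, 14.2 and 8.30 CPM in saline and 2.66, 4.60 and 3.86 CPM in IL-27. These groups overlapped, and the log2FC was −1.09 ± 0.49 (adjusted p = 1).

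**Figure D4:**
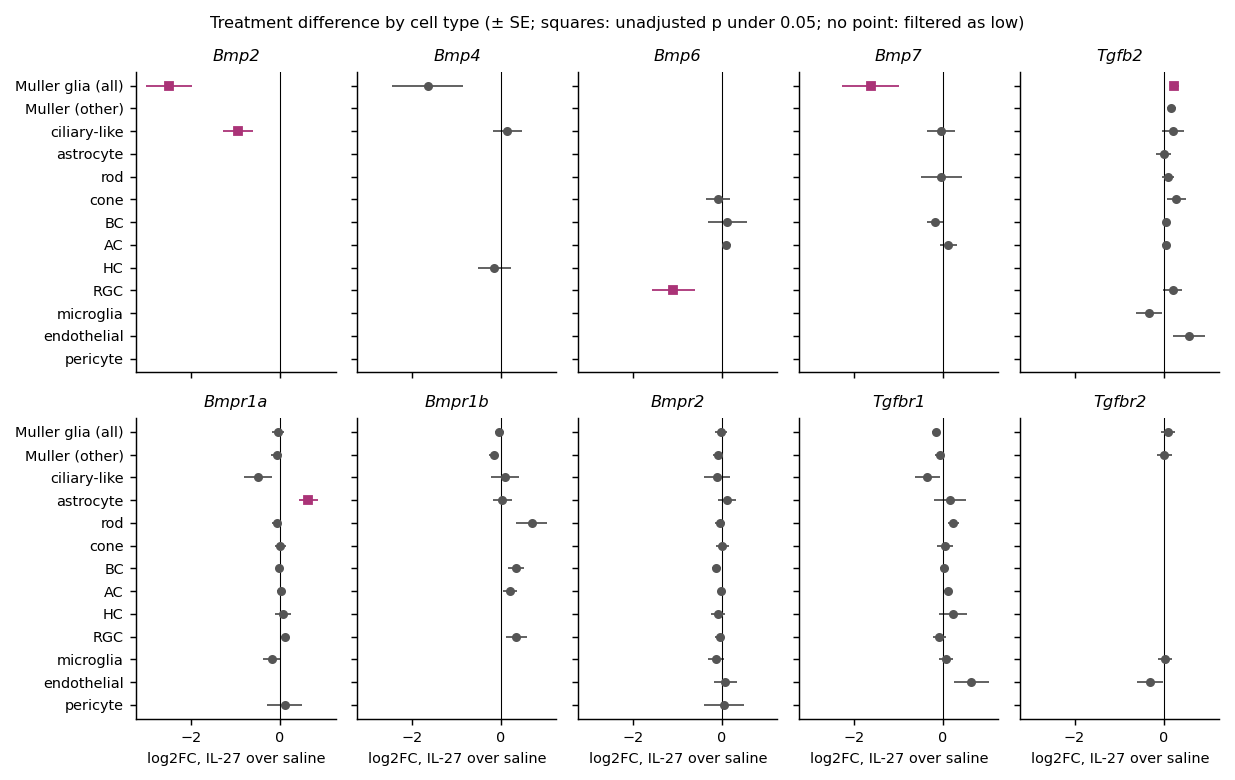
Difference between IL-27 and saline (x axis, log2FC ± SE from edgeR) for each of the 10 genes in each population (y axis). Squares mark an unadjusted p under 0.05, and a population without a point was too low to test. The 3 lowest points are Bmp2, Bmp4 and Bmp7 in all Muller glia, at −2.50, −1.64 and −1.62.

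Whether the effect in the other Muller nuclei differed from that in another population was tested by an interaction term, with the library as a block. The fit against ciliary-like nuclei left out IL-27 replicate 5 in both populations. Over 11 such fits and 79 tests of a member, 0 were called, with a smallest adjusted p of 0.201, and 7 had an unadjusted p under 0.05, against 4.95% of the tests of all genes in these fits. The share called over all genes was 0% against rods, 0.0214% against cones, 0.0126% against bipolar cells, 0.0176% against amacrine cells, 0.0229% against horizontal cells, 0.0393% against ganglion cells, 0.00704% against microglia, 0.0461% against astrocytes, 0.0149% against endothelial cells and 0% against pericytes. Bmpr1b accounted for 4 of the 7, with its log2FC in the other Muller nuclei below that in rods (difference −0.86 ± 0.31, adjusted p = 0.787), bipolar cells (−0.52 ± 0.18), amacrine cells (−0.37 ± 0.16) and ganglion cells (−0.52 ± 0.22). These differences shared the Muller libraries, and none passed the adjustment. The lowest of the 7 adjusted p-values belonged to Bmp6 against ciliary-like nuclei, which rested on 13 ciliary-like UMIs, 10 of them in IL-27 replicate 10.

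The genes whose levels over the 12 populations were most like those of a member were taken by Pearson's r of log2(mean CPM + 1), among 15439 genes at 10 CPM or more in at least 1 population. The populations share libraries and differ in depth, so r is given as a description. Choosing by r also favours genes with the same highest population, so a shared highest population is not a separate result. Bmp2 was most like Cldn2, which encodes a claudin of leaky epithelia (r = 0.983), Slc38a8 (0.980) and 2810414N06Rik (0.961). Bmp7 was most like Ltbp2 (0.922), which encodes a protein of the ciliary zonule, Tbx22 (0.915) and Slc6a13 (0.913). Bmp4 was nearest to Tmtc4 (0.894), Gm15222 and Srm. All 9 of these genes were highest in ciliary-like nuclei.

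For the other ligands, Bmp6 was nearest to Col12a1 (0.850), Tmtc1 and Ccdc174, and Tgfb2 to Cnn3 (0.944) and Gm9968. Among the receptors, Bmpr1a was nearest to Dync2li1 (0.914), Mepce and Wdr19, of which Dync2li1 and Wdr19 encode parts of ciliary transport. Bmpr1b was nearest to Gm10115 (0.968), Six3os1 and Pak3, and Bmpr2 to Prkd2 (0.986), Agpat2 and Cd2ap. Tgfbr1 was nearest to Cep152 (0.969), Ms4a6c and Tyrobp, and Tgfbr2 to Elf1 (0.978), Ifnar2 and Shisa5. The partners of both TGF-beta receptors were all highest in microglia.

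The rest of the pathway was followed in Muller glia with 95 listed genes (other ligands, other receptors and co-receptors, Smads, extracellular regulators, inhibitors and transcriptional targets), all of them measured. In all Muller glia 54 were tested and 0 were called by edgeR. At an unadjusted p under 0.05 there were 10, of which 2 were higher and 8 lower in IL-27, against 9.08% of all genes, and the median log2FC was −0.08 against 0.0055 for all genes. DESeq2 called 1 of them, Ltbp2. Without ciliary-like nuclei, 52 were tested and 0 called, with 4 at an unadjusted p under 0.05, against 4.84% of all genes, and a median of −0.02 against 0.0013. By group, 8 other ligands, 8 other receptors and co-receptors, 5 Smads, 17 extracellular regulators, 9 inhibitors and 7 targets were tested in all Muller glia, with medians of 0.02, −0.16, 0.09, −0.19, −0.03 and −0.36. Of the 10 genes, 6 were extracellular regulators.

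The pathway genes named next were chosen after their values were seen. Ltbp2 was at 34.4, 37.6 and 25.4 CPM in saline and at 2.57, 0.779 and 7.70 CPM in IL-27 over all Muller glia. The groups did not overlap, and the log2FC was −3.16 ± 0.44 (adjusted p = 0.074). Of its 509 UMIs, 474 came from ciliary-like nuclei, where it was at 211, 192 and 235 CPM in saline and 28.6, 126 and 71.2 CPM in IL-27. Within ciliary-like nuclei each IL-27 library also lay below saline, from 1, 3 and 25 UMIs (log2FC −1.72 ± 0.32 without IL-27 replicate 5, adjusted p = 0.251).

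Tgfbr3, which encodes the co-receptor betaglycan, and the microfibril gene Fbn1 were also carried by ciliary-like nuclei. In all Muller glia Tgfbr3 had a log2FC of −1.42 ± 0.46 (adjusted p = 0.368) and Fbn1 of −1.05 ± 0.42 (adjusted p = 0.50). Ciliary-like nuclei gave 441 of 601 Tgfbr3 UMIs and 1906 of 3053 Fbn1 UMIs. Fbn2, a second microfibril gene, had opposite signs with and without these nuclei. It was at 275, 285 and 196 CPM in saline and 160, 161 and 205 CPM in IL-27 over all Muller glia (log2FC −0.51 ± 0.15, adjusted p = 0.338). Without ciliary-like nuclei it was at 115, 95.8 and 110 CPM in saline and 153, 154 and 141 CPM in IL-27 (0.48 ± 0.11, adjusted p = 0.478). In the other Muller nuclei each IL-27 library was thus above each saline library.

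Smad3, the Smad of TGF-beta receptors, was at 67.0, 81.7 and 65.6 CPM in saline and 71.6, 98.8 and 94.9 CPM in IL-27 without ciliary-like nuclei (log2FC 0.31 ± 0.14, adjusted p = 0.958). Twsg1, a BMP-binding regulator, was at 24.7, 25.9 and 31.7 CPM in saline and 22.8, 20.1 and 20.5 CPM in IL-27 (−0.37 ± 0.15, adjusted p = 0.958). Of the 7 targets tested without ciliary-like nuclei, 6 had a negative log2FC, with a median of −0.45 and 0 at an unadjusted p under 0.05. The lowest was Id1, a direct target of BMP Smads (−0.97 ± 0.44, adjusted p = 0.958). Id1 was at 15.7, 20.9 and 65.4 CPM in saline and 14.1, 21.7 and 14.6 CPM in IL-27, so that saline replicate 6 stood alone and the other saline libraries lay within the range of IL-27.

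**Figure D5:**
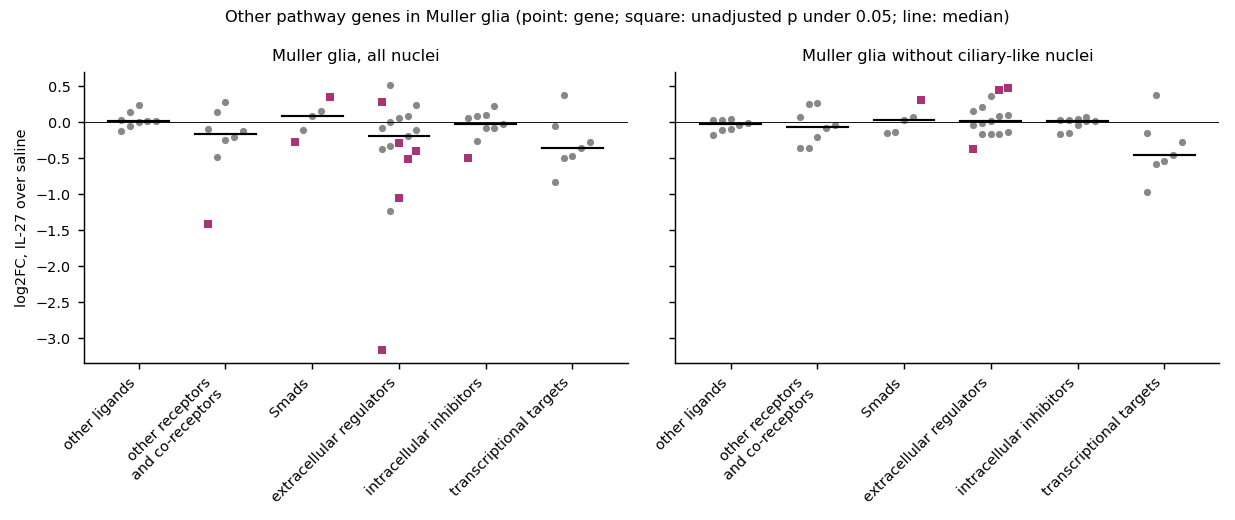
Difference between IL-27 and saline (y axis, log2FC) of the pathway genes that could be tested in all Muller glia (left, 54 genes) and in Muller glia without ciliary-like nuclei (right, 52 genes), by role (x axis). Each point is a gene, squares mark an unadjusted p under 0.05 (10 genes on the left, 4 on the right), and lines are medians. The lowest point, at −3.16, is Ltbp2.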

How the data were processed

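The deposited values are UMI counts per gene and nucleus. The authors made them from single-nucleus 3′ libraries with Cell Ranger (9.0.1 per the submitters' processing notes, 8.0.1 per the file headers) and deposited whole counts without normalization. The genome build of the counting is not given in the sources used here. The matrices hold 56634 barcodes.

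A barcode was kept if it held over 500 UMIs and no fewer than 200 genes, with mitochondrial counts below 5% (56205 barcodes). Scrublet scores (scanpy 1.11.5), ranked within each library, marked 4055 barcodes as doublets (expected rate 8%, with homotypic adjustment), and these were removed. The remaining 52150 nuclei were clustered (2000 variable genes, 25 components, Louvain in igraph 0.11.9 at resolution 0.25) and named by marker lists, with at least 3 markers required. Member and pathway genes were not used for clustering. Nuclei named Muller glia and those named ciliary epithelium were joined as Muller nuclei and clustered again (4000 genes, 10 components). The cluster with the highest mean of Fbln1, Frmpd4, Reln and Csmd3 was called ciliary-like. The authors reported these genes for their saline-enriched Muller population, found in the same libraries. Sums left out 898 nuclei whose log2 count was farther than 2 median absolute deviations from the median.

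Sums per library with at least 10 nuclei were filtered (filterByExpr, minimum 10), TMM-scaled and tested in edgeR 4.0.16 in R 4.3.3 (limma 3.58.1), with Benjamini-Hochberg adjustment over all genes of a population and a threshold of 0.05. The fits were tested on simulated data. DESeq2 1.42.0, no filter, other choices of nuclei, a finer clustering, a covariate and leaving out each library were the alternatives. Other tools were Python 3.11.15, matplotlib 3.10.9, anndata 0.12.19, scikit-learn 1.9.0, scipy 1.17.1, pandas 2.3.3 and numpy 2.4.6.

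The members and the pathway and marker lists were chosen with earlier results of these data known. Named genes are the 10 members, pathway genes with an adjusted p under 0.05 (at most 12 per fit, and none passed in the edgeR treatment fits) and the 3 genes most like each member, of which 1 is not reported here. Other pathway genes were named after their values were seen.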

Additional observations from a re-analysis of the deposited data

Results flagged for a closer look

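In 3 genes of the matrix that stores TGF-beta and BMP ligands, the difference between IL-27 and saline was not the same in ciliary-like nuclei as in the other Muller nuclei, by edgeR's interaction term with the library as a block. The log2FC in the other Muller nuclei minus that in ciliary-like nuclei was 1.06 ± 0.25 for Ltbp1 (adjusted p = 0.0090), 1.04 ± 0.25 for Fbn2 (adjusted p = 0.0098) and 1.0 ± 0.27 for Fbn1 (adjusted p = 0.049), and 0.526% of all genes in that fit were called. Ltbp1, which encodes a latent TGF-beta binding protein, was at 1144, 1220 and 886 CPM in ciliary-like nuclei of saline and at 229 and 1273 CPM in those of IL-27 replicates 4 and 10. In the other Muller nuclei it was at 116, 122 and 128 CPM in saline and 191, 127 and 182 CPM in IL-27 replicates 4, 5 and 10. IL-27 replicate 5, with 6 ciliary-like nuclei, was left out of the interaction fit in both populations. Its 127 CPM in the other Muller nuclei lay inside the saline range. The ciliary-like value of IL-27 replicate 4 rested on 8 UMIs in 12 nuclei. Fbn1 was at 739, 715 and 913 CPM in ciliary-like nuclei of saline and at 85.8 CPM, from 3 UMIs, and 766 CPM in IL-27 replicates 4 and 10. The part of the small count of ciliary-like nuclei in these differences was not tested.
These 3 calls depended on single libraries. Without saline replicate 1 or saline replicate 2, none of the 3 was called, with adjusted p-values of 0.260 to 0.508. Without IL-27 replicate 4, the values were 0.39 for Ltbp1 (adjusted p = 0.679), 0.94 for Fbn2 (adjusted p = 0.030) and 0.69 for Fbn1 (adjusted p = 0.258). Without saline replicate 6 only Ltbp1 was called, and without IL-27 replicate 10 all 3 were, at 3.37, 1.28 and 3.14.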

How the results depend on the processing

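No paired analysis was possible between the saline libraries (replicates 1, 2 and 6) and the IL-27 libraries (replicates 4, 5 and 10). Each mouse received saline or IL-27 in 1 eye and its fellow eye was left uninjected, so the groups came from different mice. The number of members called was 0 in the reported fits of Muller glia, and it was 2 without the filter on low counts (Bmp2 and Bmp7) and 0 to 3 when 1 library was left out, both by edgeR and by DESeq2. It was 3 without IL-27 replicate 10, and DESeq2 without IL-27 replicate 4 called 1 (Bmp2). In ciliary-like nuclei it was 1 without the filter (Bmp6). Pathway genes called in Muller glia were 1 by DESeq2, 4 without the filter and 0 to 3 when 1 library was left out (3 without IL-27 replicate 10). Without ciliary-like nuclei it was 1 with no filter (Id1). Over all genes, Muller glia had 4 called by edgeR, 97 by DESeq2, 298 without the filter, 13 with the ciliary-like share as a covariate and 425 without IL-27 replicate 10. Muller glia without ciliary-like nuclei had 5, 21 by DESeq2 and 99 without the filter, and ciliary-like nuclei 0, 4 by DESeq2, 63 without the filter, 41 at a mitochondrial limit of 1% and 174 without IL-27 replicate 10. The cause was not tested.

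Signs turned in the following cases, none of them called. With the ciliary-like share as a covariate, Muller glia gave 0.39 for Bmp4 and 0.26 for Bmp7. With doublets kept, Bmpr1b was 0.011 in Muller glia and Bmpr2 0.062 in ciliary-like nuclei. Without the filter, Tgfbr2 was −0.010 in Muller glia without ciliary-like nuclei and Bmpr1b −0.0073 in ciliary-like nuclei. In ciliary-like nuclei, DESeq2 gave −0.046 for Bmp4 and 0.039 for Bmpr2, the 1% limit 0.30 for Bmp7 and −0.24 for Bmpr1b, a finer clustering 0.029 for Bmp7, and all 6 libraries 0.047 for Bmp7 and 0.29 for Bmpr2. With 1 library left out, the ranges with a turned sign were −0.14 to 0.11 for Bmpr1a, −0.092 to 0.028 for Bmpr1b and −0.13 to 0.11 for Bmpr2 in Muller glia, −0.18 to 0.066 for Bmpr1a, −0.19 to 0.024 for Bmpr2 and −0.099 to 0.13 for Tgfbr2 without ciliary-like nuclei, and −2.35 to 0.33 for Bmp4, −1.69 to 0.12 for Bmp7, −0.34 to 0.33 for Tgfb2, −0.14 to 0.63 for Bmpr1b and −0.31 to 0.25 for Bmpr2 in ciliary-like nuclei. Fits that leave a group of ciliary-like nuclei with 1 library assume that it varies like the others. The 5 single-gene results that became called were Bmp2, Bmp4 and Bmp7 in Muller glia without IL-27 replicate 10, and Bmp2 and Bmp7 there without the filter. Pericytes could not be fitted with doublets kept, since no pericyte cluster was then found. The settings chosen after seeing the data were DESeq2 with 1 library left out, all 6 libraries for ciliary-like nuclei, and the other choices of nuclei for levels and for the ciliary-like share. Depth limits ciliary-like nuclei, with 23725 UMIs in IL-27 replicate 5 and 34954 in IL-27 replicate 4, and pericytes, with 29351 to 50994 UMIs per library.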
